A study of Homo sapiens with 6 samples.

Results

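NF-kappaB is a family of dimeric transcription factors, and 10 of its genes are described here in PC-3 tumours with and without a knockdown of versican. The 10 genes are the 5 subunits (RELA, RELB, REL, NFKB1 and NFKB2), the inhibitors NFKBIA and NFKBIE, the feedback regulators TNFAIP3 and BIRC3, and the adhesion gene ICAM1. They were taken by gene symbol from a table of 67026 genes, in which each of the 10 matched a single row. All 10 passed the filter on low counts, as did 16254 genes in all.

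PC-3 is an established human prostate cancer cell line. In shVCAN cells a lentiviral hairpin targets VCAN, the gene for the matrix proteoglycan versican, and in the control cells, shGFP, it targets GFP. Cells of both groups were selected with puromycin at 2 μg/mL. Each mouse received 1200000 cells under the skin in 50% Matrigel, and tumours were measured over 4 weeks. The mice were NSG (strain NOD.Cg-Prkdcscid Il2rgtm1Wjl/SzJ), male and 4 to 5 weeks old. These mice lack mature lymphocytes, so the tumours grew without an adaptive immune response. The labels name 1 hairpin target per group and do not say how many hairpin sequences were used, and they number 3 xenografts per group, each called a tumour here. A further group mentioned in the growth protocol was not analysed here.

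In resting cells NF-kappaB dimers are held in the cytoplasm by inhibitor proteins of the IkappaB type. Signals from receptors for tumour necrosis factor, interleukin 1 or microbial products activate a kinase complex that marks these inhibitors for destruction, and the freed dimers enter the nucleus. Several of the genes they switch on, NFKBIA and TNFAIP3 among them, encode proteins that shut the signal down again. PC-3 cells are known for NF-kappaB activity without added stimulus, and ICAM1 is a widely used target gene of the pathway.

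ICAM1 and NFKBIA were both more than 2-fold lower in shVCAN tumours. RELB, NFKB2, TNFAIP3, BIRC3 and RELA were lower by smaller factors, while REL, NFKB1 and NFKBIE were not called. A gene was called at a Benjamini-Hochberg adjusted p under 0.05 in edgeR's quasi-likelihood test over all genes tested. By that rule 7 of the 10 genes were lower and 0 higher. At an unadjusted p under 0.05, 8 were lower and 0 higher, and DESeq2 and limma-voom gave the same counts as edgeR, 7 and 0. The groups differed widely, since 21.1% of all genes tested were called lower and 19.2% higher. Of the 10 genes 2 were called lower by at least 2-fold, against 2.68% of the genes tested (2.77% were higher by that rule). The 10 were chosen with earlier results of these data known, so such shares only describe them and are no test. The median log2 fold change of the 10, shVCAN over shGFP, was −0.51, and that of all genes tested was 0.0014. The values of the 3 tumours did not overlap between groups in 8 of the 10 genes, all lower in shVCAN, where 24.8% of the genes tested separated in that direction. With libraries scaled by their size alone, the median of all genes tested moved up to 0.17 and 5 of the 10 genes were lower, since RELA (adjusted p = 0.179) and RELB (adjusted p = 0.0791) were no longer called.

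Libraries held 11253058 to 13327617 counts, and VCAN was lower in each shVCAN tumour (39 to 69 counts) than in each shGFP tumour (104 to 133 counts). Its log2 fold change was −1.53 (SE 0.207, edgeR adjusted p = 4.59e-07). For VCAN alone p was 0.1 by exact permutation (two-sided), which is the lower limit for 3 and 3 tumours. The share of counts in the 13 mitochondrial messenger RNAs, a sign of RNA composition, was 13.3% to 16.2% in shGFP and 6.39% to 7.63% in shVCAN. It moved with the groups, and its part in the results was not tested. Among markers of the cell line, the keratins KRT8 and KRT18 were abundant, with 2997 to 4836 counts per library. Both were called lower in shVCAN, KRT8 with a log2 fold change of −0.19 (edgeR adjusted p = 0.00463) and KRT18 with −0.54 (edgeR adjusted p = 5.51e-10). The prostate kallikreins KLK3 and KLK2 were at 0. The labels do not state that the 3 xenografts of a group were separate animals, so p-values measure the spread between these libraries, which may be technical. Fewer cells of a type and less RNA per cell cannot be told apart in whole tumours.

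ICAM1 (ENSG00000090339.9, chromosome 19, 10270835 to 10286615, GRCh38) encodes intercellular adhesion molecule 1, a surface protein that leukocyte integrins bind. The shGFP tumours 1, 2 and 3 had 2941, 2727 and 2489 ICAM1 counts, and the shVCAN tumours had 1012, 986 and 983. As CPM, the count relative to a library size scaled by TMM, these were 245, 253 and 227 in shGFP against 73.5, 69.6 and 71.7 in shVCAN. The shGFP tumours differed among themselves far less than they differed from any shVCAN tumour. The log2 fold change was −1.76 (SE 0.0592, edgeR adjusted p = 3.00e-20), a level 3.38-fold lower. By size of fall ICAM1 ranked 120 among the genes called lower. In GENCODE 29, genes on the opposite strand cover 23.6% of the exonic bases of ICAM1. Those 2 antisense genes held at most 43 counts in any library, and no source used here says whether reads were counted by strand.

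**Figure D1:**
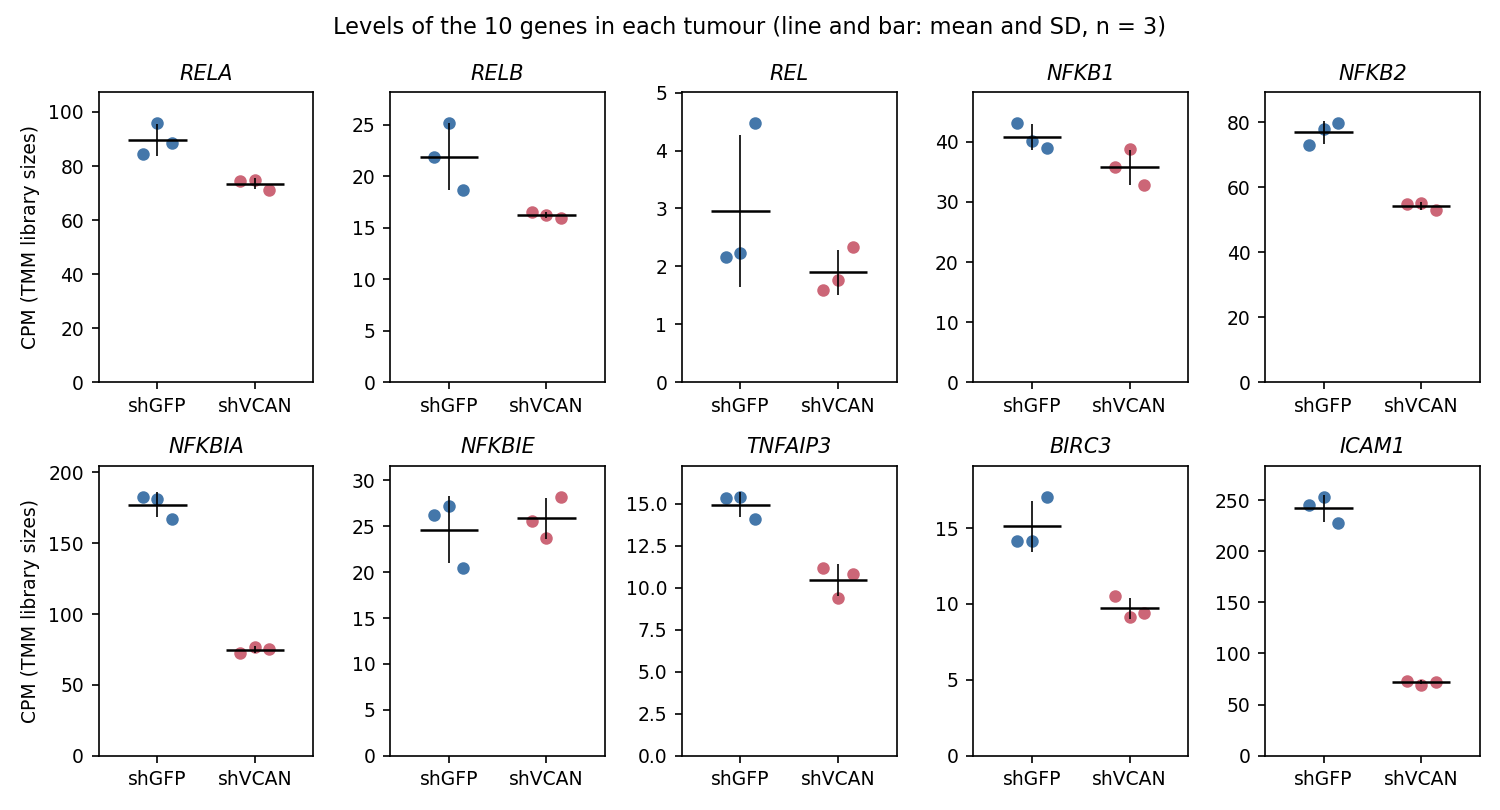
CPM of each of the 10 genes in the 3 shGFP and 3 shVCAN tumours, with a separate linear axis from 0 for each gene. Points are tumours, and the line and bar are the mean and SD. The ICAM1 and NFKBIA panels show the widest gaps between groups, whereas the groups overlap in REL and NFKBIE.

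NFKBIA (ENSG00000100906.11, chromosome 14, 35401511 to 35404749) encodes IkappaB alpha, the inhibitor that is degraded and then made anew after a stimulus. Its levels were 183, 182 and 167 CPM in shGFP and 72.5, 76.8 and 75.5 CPM in shVCAN, from 999 counts or more per library. No shVCAN tumour came near the lowest shGFP tumour. The log2 fold change was −1.24 (SE 0.0604, edgeR adjusted p = 1.87e-16), a level 2.36-fold lower. NFKBIE (ENSG00000146232.17, chromosome 6, 44258166 to 44265788), which encodes the related inhibitor IkappaB epsilon, had 26.2, 27.2 and 20.5 CPM in shGFP and 25.6, 23.7 and 28.2 CPM in shVCAN. The groups overlapped, and the log2 fold change of 0.068 (95% interval −0.16 to 0.30) was not called (edgeR adjusted p = 0.667). Its sign turned without shGFP tumour 3 (−0.043) and without shVCAN tumour 3 (−3.6e-05). The interval of NFKBIA, −1.36 to −1.12, did not overlap that of NFKBIE. The ratio of NFKBIA to NFKBIE, each per kilobase of exonic length, was 7.59, 7.25 and 8.89 in shGFP and 3.08, 3.53 and 2.91 in shVCAN.

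TNFAIP3 (ENSG00000118503.15, chromosome 6, 137867188 to 137883312) encodes A20, a ubiquitin-editing enzyme that dampens signals upstream of the kinase complex. Its levels were 15.3, 15.4 and 14.1 CPM in shGFP and 11.2, 9.38 and 10.8 CPM in shVCAN, with no overlap. The log2 fold change was −0.52 (SE 0.139, edgeR adjusted p = 0.00338). BIRC3 (ENSG00000023445.16, chromosome 11, 102317450 to 102339403) encodes a ubiquitin ligase that takes part in signalling from tumour necrosis factor receptors and restrains cell death. It had 14.2, 14.1 and 17.1 CPM in shGFP and 10.5, 9.17 and 9.41 CPM in shVCAN. The highest shGFP tumour stood above the other two, and all 3 lay above every shVCAN tumour. BIRC3 had a log2 fold change of −0.64 (SE 0.143, edgeR adjusted p = 0.000565). Both genes had 129 to 187 counts per library, so their intervals were wider than those of ICAM1 and NFKBIA.

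Among the subunits, NFKB2 fell by the largest called amount. NFKB2 (ENSG00000077150.20, chromosome 10, 102394110 to 102402529) encodes the precursor that is cut to its short DNA-binding form in the noncanonical branch of the pathway. It had 72.9, 78.0 and 79.7 CPM in shGFP and 54.7, 55.2 and 53.0 CPM in shVCAN, with the shVCAN tumours tightly grouped below. Its log2 fold change was −0.50 (SE 0.0696, edgeR adjusted p = 8.06e-07). RELB (ENSG00000104856.14, chromosome 19, 45001430 to 45038198), the usual partner of the NFKB2 product, had 21.9, 25.2 and 18.6 CPM in shGFP and 16.5, 16.2 and 15.9 CPM in shVCAN. The shGFP values were spread over a range of their own, above all 3 shVCAN values. RELB had a log2 fold change of −0.43 (SE 0.122, edgeR adjusted p = 0.0049), and without shGFP tumour 2, its highest, the call was lost (−0.31, adjusted p = 0.0699).

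RELA (ENSG00000173039.19, chromosome 11, 65653596 to 65663094) encodes the main activating subunit of the canonical pathway. It had 84.3, 95.9 and 88.7 CPM in shGFP and 74.4, 74.9 and 71.1 CPM in shVCAN, which did not overlap. Its log2 fold change of −0.29 (SE 0.0669, edgeR adjusted p = 0.000915) was the smallest of the 7 called. It was −0.15 (adjusted p = 0.0379) with an offset for transcript length and GC content and −0.12 with library size alone. NFKB1 (ENSG00000109320.13, chromosome 4, 102501329 to 102617302) encodes the precursor of the usual partner of RELA. It had 43.1, 40.2 and 38.9 CPM in shGFP and 35.8, 38.7 and 32.8 CPM in shVCAN, so the groups were barely apart. The log2 fold change of −0.19 (95% interval −0.37 to −0.0085) had an unadjusted p of 0.0407 and was not called (edgeR adjusted p = 0.0891). Without shVCAN tumour 2 it was called (−0.25, adjusted p = 0.0299), and it was −0.060 with the length and GC offset and −0.021 with library size alone.

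REL (ENSG00000162924.15, chromosome 2, 60881521 to 60931610) encodes c-Rel, a subunit best known from lymphocytes. It was the scarcest of the 10, with 26, 24 and 49 counts in shGFP and 22, 25 and 32 in shVCAN. One shGFP tumour, number 3, lay apart from the others, and the groups overlapped. The log2 fold change of −0.63 (95% interval −1.34 to 0.072) was not called (edgeR adjusted p = 0.149), and a fall or a small rise was not distinguishable at this depth. Without shGFP tumour 3 the value was −0.21 (adjusted p = 0.73), so its size rests on that tumour. A second gene model on the same strand shares 43.3% of the exonic bases of REL in GENCODE 29 and held 0 counts in every library.

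**Figure D2:**
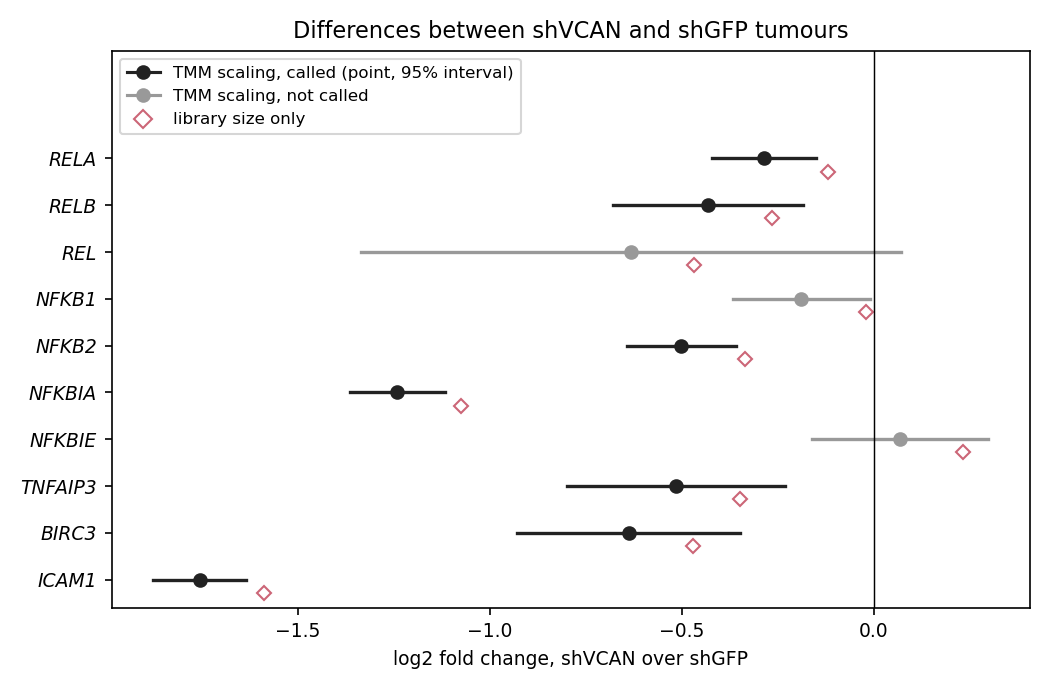
Log2 fold changes of the 10 genes, shVCAN over shGFP, with 95% intervals from edgeR under TMM scaling (black called, grey not called). Open diamonds are the values with library size alone, which lie to the right of every point. ICAM1 (−1.76) and NFKBIA (−1.24) lie furthest from 0.

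Levels of different genes were compared per kilobase of exonic length. In shGFP tumours NFKBIA led with 74.7 ± 3.67 CPM per kb (SD, n = 3), followed by ICAM1 with 65.3 ± 3.58, and these did not overlap. NFKB2 (17.1 ± 0.785) and RELA (16.4 ± 1.07) came next and overlapped. Their order depends on the division by length, since in CPM RELA (84.3, 95.9 and 88.7) was above NFKB2 (72.9, 78.0 and 79.7) in every shGFP tumour. NFKBIE (9.55 ± 1.42) overlapped RELB (7.22 ± 1.08), which overlapped NFKB1 (6.51 ± 0.346). TNFAIP3 (2.96 ± 0.150), BIRC3 (2.01 ± 0.226) and REL (0.225 ± 0.0999) were lowest. In shVCAN tumours NFKBIA (31.6 ± 0.935) and ICAM1 (19.3 ± 0.525) still led, and RELA (13.4 ± 0.383) stood above NFKB2 (12.1 ± 0.259) without overlap. For REL and ICAM1 these values depend on how reads in the shared exonic bases were counted.

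The composition of the subunit pool does not depend on how libraries are scaled. Of the summed length-scaled level of the 5 subunits, NFKB2 made up 35.4%, 34.9% and 38.1% in shGFP and 32.9%, 32.6% and 33.3% in shVCAN. RELA made up 33.6%, 35.2% and 34.7% in shGFP and 36.7%, 36.4% and 36.7% in shVCAN. For both subunits the groups did not overlap, with differences of −3.18 and 2.07 percentage points (exact two-sided permutation p = 0.1 each, adjusted p = 0.25 over 5 subunits). The share of NFKB1 was 13.7% ± 1.11 and 15.5% ± 0.827 (SD, n = 3 each; exact permutation p = 0.2, adjusted p = 0.333). That of RELB was 15.2% ± 1.81 and 14.5% ± 0.316 (SD, n = 3 each; exact permutation p = 0.7, adjusted p = 0.7). REL made up at most 0.727% in any tumour. With 3 against 3 tumours none of these tests can pass 0.05.

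Transcripts of each inhibitor were also set against those of the 5 subunits together, whichever of them its protein binds. The level of NFKBIA over the summed level of the 5 subunits, per kilobase, was 1.68, 1.54 and 1.51 in shGFP and 0.823, 0.859 and 0.897 in shVCAN. The same ratio for NFKBIE was 0.221, 0.212 and 0.170 in shGFP and 0.267, 0.244 and 0.308 in shVCAN. The first ratio was lower in every shVCAN tumour and the second higher. ICAM1 over NFKBIA was 0.857, 0.894 and 0.870 in shGFP and 0.649, 0.580 and 0.608 in shVCAN, so ICAM1 was lower by more than NFKBIA in these libraries. The ratios were chosen after the values were seen and were not tested.

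**Figure D3:**
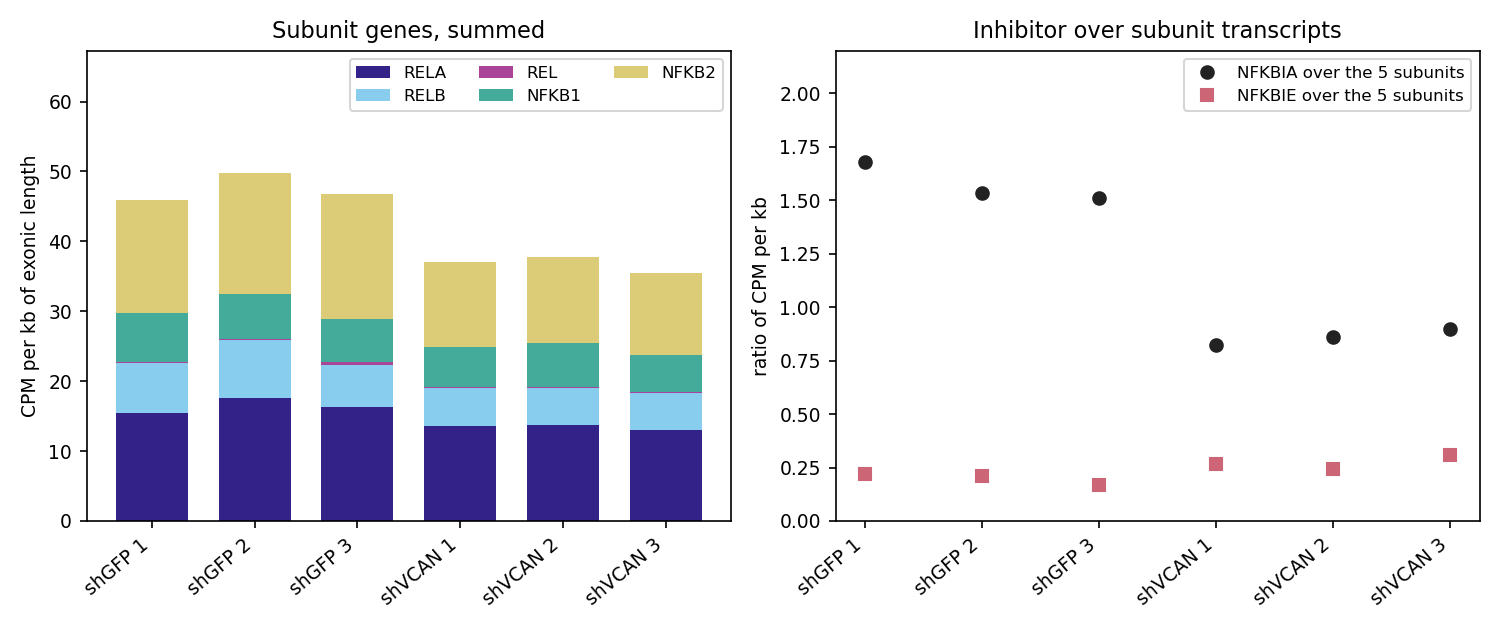
Left, stacked CPM per kb of exonic length of the 5 subunit genes in each tumour, where REL is barely visible. Right, the ratio of NFKBIA (circles) and of NFKBIE (squares) to that sum, with NFKBIA above 1.5 in all shGFP tumours and below 0.9 in all shVCAN tumours.

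Sequences next to the start sites were read to see which of the 10 genes carry the DNA motif that NF-kappaB dimers bind. RefSeq promoter windows (GRCh38.p14, 250 bases before to 50 after a start) matched 8 of the 10 genes with 12 windows, and RELB and NFKBIE had none. The 10-letter kappaB consensus, searched on both strands, was found in windows of 6 genes, and in 11.3% of all 35116 windows (13.3% of genes). The looser spelling GGNNNTTCC, also on both strands and largely overlapping the consensus, was found in 7 genes, and in 20.1% of all windows (23.5% of genes). ICAM1 matched only the looser spelling, and neither RELA window held a match. A match is a string of letters and does not show that a factor binds there.

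One stretch is shown for each of the 7 genes with a match: first ICAM1, NFKBIA, TNFAIP3 and BIRC3, then NFKB2, the subunit with the largest called fall, then NFKB1 and REL, which were not called. Counting only matches that end before the start, NFKB2 had 4 matched stretches, and NFKBIA and BIRC3 had 2 each, of which the others are not shown. Letters are on the strand of the gene, 5′ to 3′, and capitals mark the matched motif or motifs.
ICAM1: gctttagcttGGAAATTCCggagctgaag
NFKBIA: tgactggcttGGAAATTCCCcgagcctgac
TNFAIP3: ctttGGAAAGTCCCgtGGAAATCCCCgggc
BIRC3: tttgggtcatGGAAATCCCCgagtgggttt
NFKB2: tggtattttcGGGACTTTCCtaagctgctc
NFKB1: cgacgtcagtGGGAATTTCCagccaggaag
REL: gtcagccgcGGGAAATTCCCctcccgcca
The ICAM1 stretch is chr19:10270924-10270952 on the plus strand, with the match at positions −186 to −178 from the start. It overlaps an exon of a longer ICAM1 model in GENCODE 29. The NFKBIA stretch is chr14:35404811-35404840 on the minus strand, outside the annotated gene, with the match at −81 to −72. TNFAIP3 (chr6:137867188-137867217, plus strand) carries 2 matches, between −67 and −46. BIRC3 (chr11:102317275-102317304, plus strand) lies upstream of the annotated gene. NFKB2 (chr10:102395674-102395703), NFKB1 (chr4:102501300-102501329) and REL (chr2:60881518-60881546), all on the plus strand, overlap exons of GENCODE 29 models. The ICAM1 and NFKBIA stretches share the letters GGAAATTCC, as does REL, and the NFKB1 stretch carries them on the opposite strand. The genes with a match thus include called and uncalled genes, and RELA was called without one.

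Other genes of the pathway were taken from 4 lists: ligands, receptors and adaptors, kinases and ubiquitin ligases, and other inhibitors and feedback genes. Of 64 listed pathway genes 52 were tested, of which 20 were lower, 2 higher and 30 not called, with a median log2 fold change of −0.18. That is 42.3% called, against 40.3% of all genes tested (21.1% lower and 19.2% higher). With library size alone 10 were lower and 8 higher. Among the 5 tested ligands edgeR called 0. At an unadjusted p under 0.05 it gave 1, which was higher, DESeq2 and limma-voom called 0, and library size alone gave 2 higher. IL1B had 44.1 ± 6.58 CPM in shGFP and 49.7 ± 3.50 CPM in shVCAN (SD, n = 3 each), and the groups overlapped. Its log2 fold change was 0.17 (95% interval −0.011 to 0.36).

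Of 21 tested receptors and adaptors, 11 were lower and 0 higher by edgeR (52.4% called, against 40.3% of all genes tested). At an unadjusted p under 0.05 the counts were 11 and 1, by DESeq2 9 and 0, by limma-voom 11 and 1, and with library size alone 5 and 2. TRAF1, an adaptor and known target gene of the pathway, fell from 4.32 ± 0.247 to 1.41 ± 0.230 CPM (SD, n = 3 each). IRAK2, a kinase of the interleukin 1 and Toll-like receptor pathways, fell from 36.9 ± 2.95 to 17.6 ± 2.02 CPM. IL1RAP, the shared chain of interleukin 1 receptors, fell from 28.96 ± 2.96 to 17.5 ± 2.39 CPM, and the lymphotoxin beta receptor LTBR from 109 ± 8.09 to 83.4 ± 1.37 CPM. The list thus holds called falls in genes of several receptor types.

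Of 14 tested kinases and ubiquitin ligases, 2 were higher and 2 lower (28.6% called, against 40.3% of all genes tested). The kinase subunit CHUK (IKK alpha) fell from 22.9 ± 1.46 to 14.7 ± 1.64 CPM, and RBCK1, a part of the linear ubiquitin ligase, from 234 ± 5.06 to 152 ± 3.89 CPM. BIRC2, the close relative of BIRC3, rose from 47.5 ± 3.03 to 61.9 ± 1.595 CPM. MAP3K7 (TAK1), the kinase upstream of the IKK complex, rose from 37.8 ± 1.92 to 46.8 ± 4.42 CPM. BIRC2 and BIRC3 had called differences of opposite sign, and the other IKK subunits IKBKB (log2 fold change −0.029, 95% interval −0.23 to 0.18) and IKBKG (−0.23, −0.65 to 0.20) were not called.

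Of 12 other inhibitors and feedback genes tested, 7 were lower and 0 higher by edgeR, DESeq2 and limma-voom alike. By edgeR 58.3% were called, against 40.3% of all genes tested. At an unadjusted p under 0.05 the counts were 9 and 0, and with library size alone 3 and 1. TNIP1, which binds A20, fell from 159 ± 11.3 to 109 ± 3.54 CPM, and the nuclear IkappaB protein BCL3 from 18.3 ± 2.56 to 9.42 ± 1.55 CPM. The RNase ZC3H12A fell from 18.3 ± 1.32 to 11.4 ± 0.554 CPM and the nuclear IkappaB protein NFKBIZ from 159 ± 6.17 to 134 ± 3.61 CPM. The remaining 3 called genes were CYLD, TAX1BP1 and NKIRAS2.

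**Figure D4:**
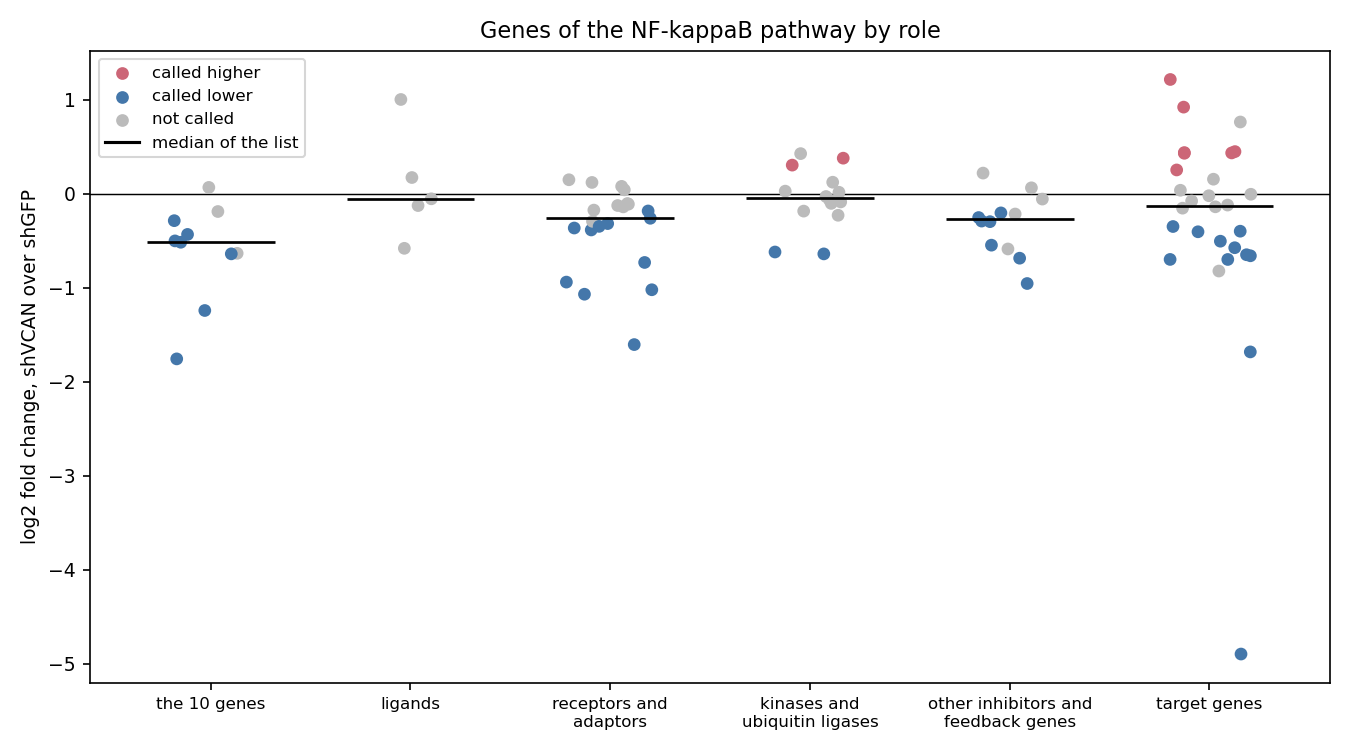
Log2 fold changes of tested genes, shVCAN over shGFP, grouped by role, with red called higher, blue called lower and grey not called. Horizontal position within a group is arbitrary, black lines are medians, and the lowest target gene point is LCN2 (−4.90, from at most 2 counts in any shVCAN tumour). Under this TMM scaling no gene was called higher among the 10 genes, the ligands, the receptors and adaptors or the inhibitors, whereas with library size alone 2 ligands, 2 receptors and adaptors and 1 inhibitor were.

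Target genes of the pathway, from a list of 35 with 28 tested, went both ways. Of these, 11 were lower, 7 higher and 10 not called (8 lower and 8 higher with library size alone). Under TMM scaling 64.3% were called, against 40.3% of all genes tested (21.1% lower and 19.2% higher). The list's median was −0.13 on the log2 scale. SDC4, a heparan sulfate proteoglycan, fell from 345 ± 4.58 to 213 ± 6.77 CPM, and the pentraxin PTX3 from 277 ± 9.75 to 176 ± 9.28 CPM (SD, n = 3 each). BCL2A1, which restrains apoptosis, rose from 13.5 ± 1.297 to 31.5 ± 1.79 CPM, in the direction opposite to ICAM1. The chemokine CXCL8 also had a called rise (log2 fold change 0.92, SE 0.0732, edgeR adjusted p = 1.38e-11). SOD2, a mitochondrial enzyme often used as a readout of NF-kappaB, was not called (−0.0045, 95% interval −0.17 to 0.16).

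Some pathway genes could not be read from the table. TNF, LTA, LTB, NFKBIL1, NFKBIB, RNF31, TNFSF14 and CD40LG were listed at 0 in all 6 libraries, as were the target genes IER3, CCL5 and SAA1. In the part of chromosome 6 that holds TNF, LTA, LTB, NFKBIL1, IER3 and the macrophage marker AIF1 (28.5 to 33.5 Mb), 151 of 181 protein-coding genes were at 0, against 17.1% of all protein-coding genes. The ribosomal protein gene RPS18, which every cell uses, lies there and had 1 count over all libraries. Around NFKBIB on chromosome 19, 12 of 15 protein-coding genes within 150 kb were at 0, and the nearby splicing factor gene HNRNPL had 1 count over all libraries. A 0 in these places is therefore not reported as absence of the transcript. The surroundings of the other genes at 0 were not examined.

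Relatives and receptors of ICAM1 were mostly low. ICAM5, known from neurons, rose from 4.88 ± 0.840 to 9.25 ± 1.67 CPM (SD, n = 3 each), and ICAM3 was not called (log2 fold change 0.042, 95% interval −0.17 to 0.25). ITGB2, the chain shared by the leukocyte integrins that bind ICAM1, had 19 to 59 counts per library and fell from 3.91 ± 1.36 to 1.95 ± 0.638 CPM. Its partner ITGAL had at most 5 counts.

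The genes whose profile over the 6 libraries was most like that of ICAM1 were found among genes of at least 5 CPM. Likeness was the root mean square difference of log2 CPM after centring on the shGFP mean. The nearest was ENSG00000261327.5 (difference 0.0681), which has no symbol, followed by the transcription factor PRRX1 (0.0686), the cilium gene IFT57 (0.110), the semaphorin receptor PLXND1 (0.113) and the Notch-modifying enzyme LFNG (0.114). Their log2 fold changes lay between −1.90 (IFT57) and −1.62 (PLXND1).

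Markers of other cell types that make ICAM1 and NF-kappaB proteins were read beside these results. Of 14 macrophage markers, 4 passed the filter and 1 (CD14) was called lower (25% called, against 40.3% of all genes tested). CSF1R (log2 fold change −1.25), ADGRE1 (0.24) and LYZ (−0.036) were not called. The summed level of the list was 6.74 to 9.57 CPM in shGFP and 4.59 to 6.64 CPM in shVCAN, and CD163, C1QA, C1QB, C1QC and TYROBP were at 0. AIF1 was also listed at 0 and lies in the part of chromosome 6 where a 0 is not read as absence. For the other markers at 0, here and below, the surroundings were not examined, so a 0 does not show absence either. The leukocyte gene PTPRC had at most 3 counts in a library. Among 10 neutrophil markers 2 were tested and S100A9, which epithelial cells also make, was called higher (50% called). The neutrophil list summed to 65.8 to 84.5 CPM in shGFP and 89.9 to 104.4 CPM in shVCAN, with ELANE at 0. These sums were almost all S100A9 (71.9 ± 9.11 and 96.5 ± 7.39 CPM, SD, n = 3 each). ITGAM, the other tested marker, was not called, and the remaining markers had at most 10 counts in a library. Of 12 lymphocyte markers 1 (CD8A) was tested and called higher (100% called). The sums were 1.74 to 2.66 CPM in shGFP and 4.43 to 5.64 CPM in shVCAN, with CD3E, CD3G, CD2, MS4A1 and NKG7 at 0.

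Of the endothelial and fibroblast markers tested, most were called lower and 1 in each list higher. Of 12 endothelial markers 8 were tested, of which 6 were lower and 1 higher (87.5% called, against 40.3% of all genes tested). The endothelial list summed to 251 to 265 CPM in shGFP and 197 to 203 CPM in shVCAN. The marker called higher was EGFL7, from 41.2 ± 1.87 to 49.1 ± 5.54 CPM (SD, n = 3 each). CDH5 fell from 5.87 ± 0.585 to 0.885 ± 0.277 CPM and KDR from 45.5 ± 2.63 to 24.0 ± 1.45 CPM. PECAM1 fell from 33.4 ± 1.13 to 24.1 ± 0.989 CPM and TIE1 from 84.7 ± 4.37 to 64.6 ± 7.45 CPM. VWF and CLDN5 had at most 8 counts in a library. Of 12 fibroblast and pericyte markers 9 were tested, of which 6 were lower and 1 higher (77.8% called). That list summed to 878 to 982 CPM in shGFP and 426 to 527 CPM in shVCAN. Its marker called higher was RGS5, from 21.9 ± 1.34 to 30.5 ± 4.73 CPM. COL1A1 fell from 619 ± 37.5 to 300.5 ± 48.9 CPM (log2 fold change −1.04) and COL1A2 from 72.1 ± 10.4 to 13.9 ± 2.78 CPM (−2.37). COL3A1 fell from 80.2 ± 7.87 to 29.7 ± 4.48 CPM (−1.44) and FAP from 22.3 ± 3.13 to 9.76 ± 1.06 CPM (−1.19). DCN had 5 counts in a single library and THY1 was at 0. No source used here says whether mouse reads were removed before counting, and human and mouse origin cannot be told apart in these counts. The part of such cells in the lower level of ICAM1, NFKBIA and the other called genes was not tested.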

How the data were processed

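RNA of 6 PC-3 xenografts (3 per group) was read as paired-end sequence (labels' protocols). Counts of reads per gene, whole numbers without normalisation, are what the authors deposited, under versioned Ensembl identifiers. The submitters' processing notes name Trim Galore, STAR, DESeq2 and hg38 without roles. Counting program, annotation, strand setting and handling of host sequence stand as not given in the sources used here.

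From the 67071 rows, 45 second copies of pseudoautosomal genes (0 counts) were left out. Symbols came from a symbol table (60370 genes) and GENCODE 29 (289), and coordinates and exonic lengths (union of exons) from GENCODE 29 on GRCh38. The groups were compared over the whole table with edgeR 4.0.16 (R 4.3.3) by quasi-likelihood tests, with filterByExpr, TMM scaling and group as the only term. The SE is the size of the log2 fold change divided by the square root of F. CPM were scaled by TMM. A prior count of 2 was used for log2 CPM. Scripts were tested on simulated data. The alternatives were DESeq2 1.42.0 size factors and Wald test, upper quartile factors, library size only, TMM without mitochondrial messenger RNAs, no filter, a filter of 1 CPM in 3 libraries, limma-voom (limma 3.58.1), a replicate block, an offset for length and GC content, and each tumour left out, and for subunit shares also counts not divided by length.

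The 10 genes and the lists were chosen with earlier results of these data known. Named genes are the 10, VCAN, up to 4 called genes per list with the smallest p, and the 5 genes most like ICAM1. Mitochondrial messenger RNAs were not named singly. Other genes were named after their values were seen: uncalled genes, genes at 0, LCN2, EGFL7, RGS5, CYLD, TAX1BP1 and NKIRAS2. Some genes of the cell line list are not reported here. Pairs of libraries differed by more than counting noise (chi-square per gene 3.22 to 5.9 within groups). Same-numbered tumours did not deviate together (r −0.0616 to 0.0487 over 12132 genes), so the numbers were not used as pairs.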

Additional observations from a re-analysis of the deposited data

How the results depend on the processing

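ICAM1, NFKBIA, NFKB2, TNFAIP3 and BIRC3 were called lower under all 16 alternatives, with log2 fold changes of −1.79 to −1.59 for ICAM1 and −1.31 to −1.08 for NFKBIA. Of the 10 genes, 5 were lower with library size only, 6 without shGFP tumour 2, 8 without shVCAN tumour 2 and 7 otherwise. Library size only also gave 8 pathway genes higher and 10 lower, and 5228 of all genes higher and 1890 lower (73.4% of calls higher, against 47.7%). Leaving out single tumours gave 2 to 4 pathway genes higher, the 4 without shGFP tumour 2. Without single tumours the log2 fold change of NFKBIE ran from −0.043 (without shGFP tumour 3) to 0.15, and was −3.6e-05 without shVCAN tumour 3. The difference in the share of RELB among subunits ran from −1.63 to 0.128 percentage points (without shGFP tumour 2), and that of REL from −0.149 to 0.0452 (without shGFP tumour 3). The length and GC offset gave −0.15 for RELA, −0.060 for NFKB1 and 0.028 for NFKBIE, and REL was −0.21 without shGFP tumour 3. The causes were not tested. With the replicate block 7 of the 10 genes were lower, as without it, and 20 pathway genes. Depth limits REL, with 22 to 49 counts per library.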
